A study of Mus musculus with 24 samples.

Results

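The nuclear genes for the subunits of respiratory complexes I to IV were followed across mouse pluripotent cell lines and early embryonic tissue. Members were chosen by symbol alone: Ndufa, Ndufb, Ndufc, Ndufs and Ndufv genes with a number, Ndufab1, Sdha to Sdhd, the Uqcr genes, and Cox4 to Cox8 with their isoforms. Assembly factors and Ndufa4l2 were left out. The rule gave 66 genes of the 20616 represented on the array: 37 of complex I, 4 of complex II, 8 of complex III and 17 of complex IV. The complex was assigned by symbol alone, which places Ndufa4 in complex I whatever complex its protein sits in. The annotation held 67 such symbols, and Ndufb1 was not analysed here.

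The respiratory chain passes electrons from NADH (complex I) and succinate (complex II) through coenzyme Q to complex III, then by cytochrome c to complex IV, where oxygen is reduced. Complexes I, III and IV pump protons across the inner mitochondrial membrane, and the gradient drives ATP synthase. Most subunits are made from nuclear genes, and several complex IV subunits come in a form found in most tissues and a form found mainly in muscle, lung or testis. Pluripotent cells of the pre-implantation type are known to respire more than those of the post-implantation type, which rely more on glycolysis.

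The 24 single-colour arrays made up 12 groups of 2. Epiblast stem cells (EpiSCs) are pluripotent lines derived from post-implantation epiblast. The original derivation protocol gave lines Wt1 and 129C1. A Wnt inhibitor was present when 129Ba1, 129Ba2 and BNa17 were derived. A further group was 129C1 given IWP2, a blocker of Wnt secretion. J1 and R1 are mouse embryonic stem cell (mESC) lines, of blastocyst origin. J1 formed another group in 2i, a medium with inhibitors of Mek and Gsk3. The tissue groups, dissected by hand, were E5.5 epiblast, E6.5 epiblast and E7.5 embryonic ectoderm. All stem cells were kept on feeder layers and parted from them before RNA extraction. The labels do not say whether the 2 arrays of a group were independent cultures or dissections, and p-values thus measure the spread between these arrays or lines only, which may be technical.

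Levels are the log2 processed signal minus the log2 75th percentile of the array, so 0 marks that percentile, and levels are compared between samples for 1 gene at a time. Between 36.7% and 53.2% of probes were well above background, and no value was saturated. Array 1 of BNa17 stood apart: it had the lowest share above background, and 58 of 62 members were higher on it than on its replicate, by a median of 0.65. By the markers of the labelled cell types, all 9 markers of naive pluripotency were measured on both arrays of each mESC group, and all 5 of post-implantation epiblast in every group. Of 8 fibroblast markers, all were measured in every cell line, with a summed linear level of 64.1 to 335 in untreated EpiSC arrays and 58.4 to 96.0 in untreated mESC arrays, against 5.98 to 14.7 in embryo arrays. Visceral endoderm markers (6 of 6) were measured in E5.5 and E6.5 epiblast, with summed levels of 5.03 to 62.5, and did not pass 0.912 elsewhere. In RNA from mixed cells, fewer cells of a type and less RNA per cell cannot be told apart.

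Of the members, 62 were well above background on all arrays and 64 entered the tests. The exceptions were isoforms of complex IV: Cox8c was measured on 10 arrays, Cox7b2 on 8, Cox6a2 on 5 and Cox8b on 1, and the last 2 of these were not tested. Across the 12 groups 43 of 64 members differed at an adjusted p below 0.05 (limma F-test over all genes, Benjamini-Hochberg), against 90.7% of all genes. By complex these were 20 of 37 for complex I, 4 of 4 for complex II, 5 of 8 for complex III and 14 of 15 for complex IV. The count for all members was not stable: it ran from 37 to 61 when 1 array was left out. Group means of Uqcrc2, a core protein of complex III, spanned 0.66. Those of Ndufs4, an accessory subunit of complex I named here after its values were seen, spanned 0.50 (adjusted p = 0.88 in the F-test). Among the 62 members measured throughout, the widest spans were in complex IV, 3.71 for Cox7a1 and 3.24 for Cox6b2.

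The median level of the members was lower in EpiSC lines and embryo tissue than in mESCs. Each member was centred on its mean over the 12 groups. The median centred level of the 62 members was 0.26 in J1, 0.30 in R1 and 0.50 in J1 in 2i. In untreated EpiSC lines it lay between -0.27 (129Ba1) and 0.05 (BNa17), and in embryo tissue between -0.24 (E7.5) and -0.17 (E6.5). Replicate arrays differed most in BNa17 (0.41 and -0.29), and the order among EpiSC lines and tissues lies within the spread of replicates. Of 62 members, 36 had their highest mean in J1 in 2i, 10 in R1, 8 in the EpiSC line BNa17 and 3 in J1.

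**Figure D1:**
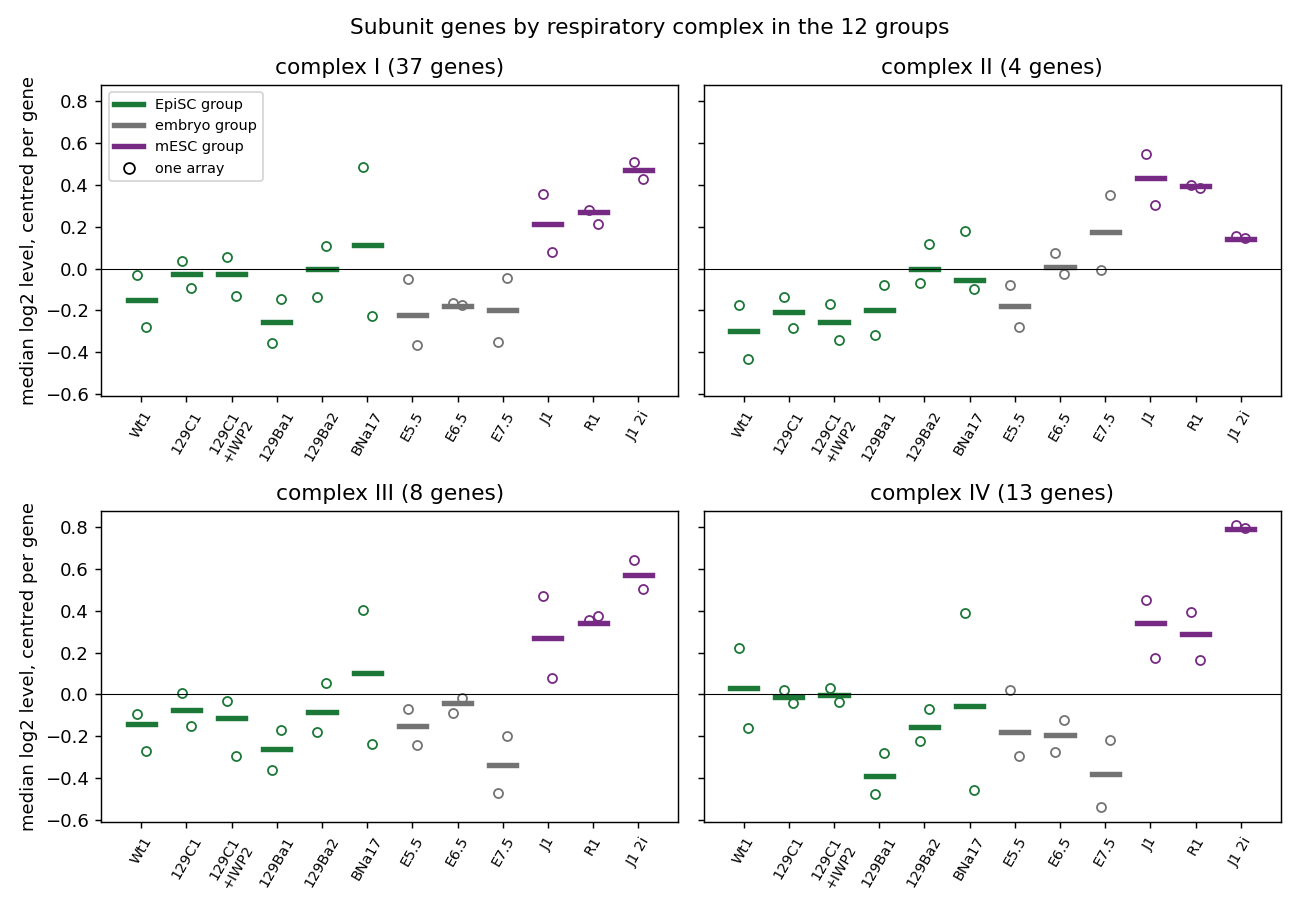
Median log2 level of the subunit genes of each complex, after centring each gene on its mean over the 12 groups (bars), with the same median on each of the 2 arrays (open points). Complex IV reaches 0.79 in J1 in 2i, while complex II peaks in J1 (0.43) and is at 0.14 in 2i.

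EpiSC lines were compared with mESC lines over the means of 5 and 2 lines. In the EpiSC lines 20 of 64 members were called lower and 0 higher, against 19.6% of all genes called lower and 17.3% called higher. The median difference was -0.39 for the members and -0.01 for all genes, and 53 of 64 members had a difference below 0. At an unadjusted p below 0.05 in limma, 28 members were lower and 0 higher. The called members were 8 of complex I, 2 of complex II, 4 of complex III and 6 of complex IV. For 16 of the 64 tested members the arrays of the EpiSC lines all lay below those of the mESC lines, against 21.2% of all genes. These 16 were all among the 20 called. The opposite order was seen for 0 members and 15.7% of all genes.

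In complex I the largest differences were in 2 core subunits that carry electrons. Ndufv1, which binds NADH, lay between 5.96 and 6.76 (median 6.13) on the 10 EpiSC arrays, and at 7.09 and 6.78 in J1 and 7.05 and 7.14 in R1. Ndufs1, the largest iron-sulphur core subunit, lay between 4.81 and 5.46 (median 5.14) in EpiSCs, and at 5.94, 5.88, 6.02 and 5.97 on the mESC arrays. Neither gene overlapped between the groups. The difference was -0.82 ± 0.17 (SE, adjusted p = 0.0106) for Ndufv1 and -0.78 ± 0.21 (adjusted p = 0.0247) for Ndufs1. Of the other core genes, Ndufv2 (-0.30 ± 0.21), Ndufs3 (-0.20 ± 0.19), Ndufs7 (-0.06 ± 0.17) and Ndufs8 (0.01 ± 0.18) did not pass the test. The other 6 called members were accessory subunits: Ndufb5, Ndufb10, Ndufa10, Ndufa1, Ndufa8 and Ndufb9, with differences of -0.74 to -0.57.

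Complex II, which joins the respiratory chain to the tricarboxylic acid cycle, had differences below 0 for all 4 genes, of which 2 passed the test. Sdha, the flavoprotein that oxidises succinate, lay between 4.19 and 5.07 (median 4.65) in EpiSCs and at 5.56, 5.47, 5.73 and 5.70 in J1 and R1, with no overlap. It differed by -0.96 ± 0.24 (adjusted p = 0.0176). Sdhc, a membrane anchor, lay between 3.78 and 4.37 against 4.55 to 4.92, again with no overlap, and differed by -0.61 ± 0.19 (adjusted p = 0.0379). The call of Sdhc ended in 11 of 28 alternatives, with adjusted p up to 0.244, and a second probe of the gene gave -0.22. Sdhb, the iron-sulphur subunit, differed by -0.48 ± 0.17 (adjusted p = 0.0587) and Sdhd, the other anchor, by -0.27 ± 0.20 (adjusted p = 0.325), so neither passed.

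Among EpiSC lines Sdha was lowest in Wt1 (4.25 and 4.19) and highest in 129Ba2 (4.95 and 5.07). E5.5 epiblast, at 4.90 and 4.74, lay within the range of the EpiSC arrays. E6.5 epiblast (5.15 and 5.13) and E7.5 ectoderm (5.25 and 5.31) lay between the EpiSC and mESC arrays. In the lines established with the Wnt inhibitor it read 4.35 to 5.07, a range that holds the 129C1 arrays at 4.58 and 4.51. The level in J1 in 2i, 4.95 ± 0.06 (SD, n = 2), was below that of J1 and within the range of the EpiSC lines.

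**Figure D2:**
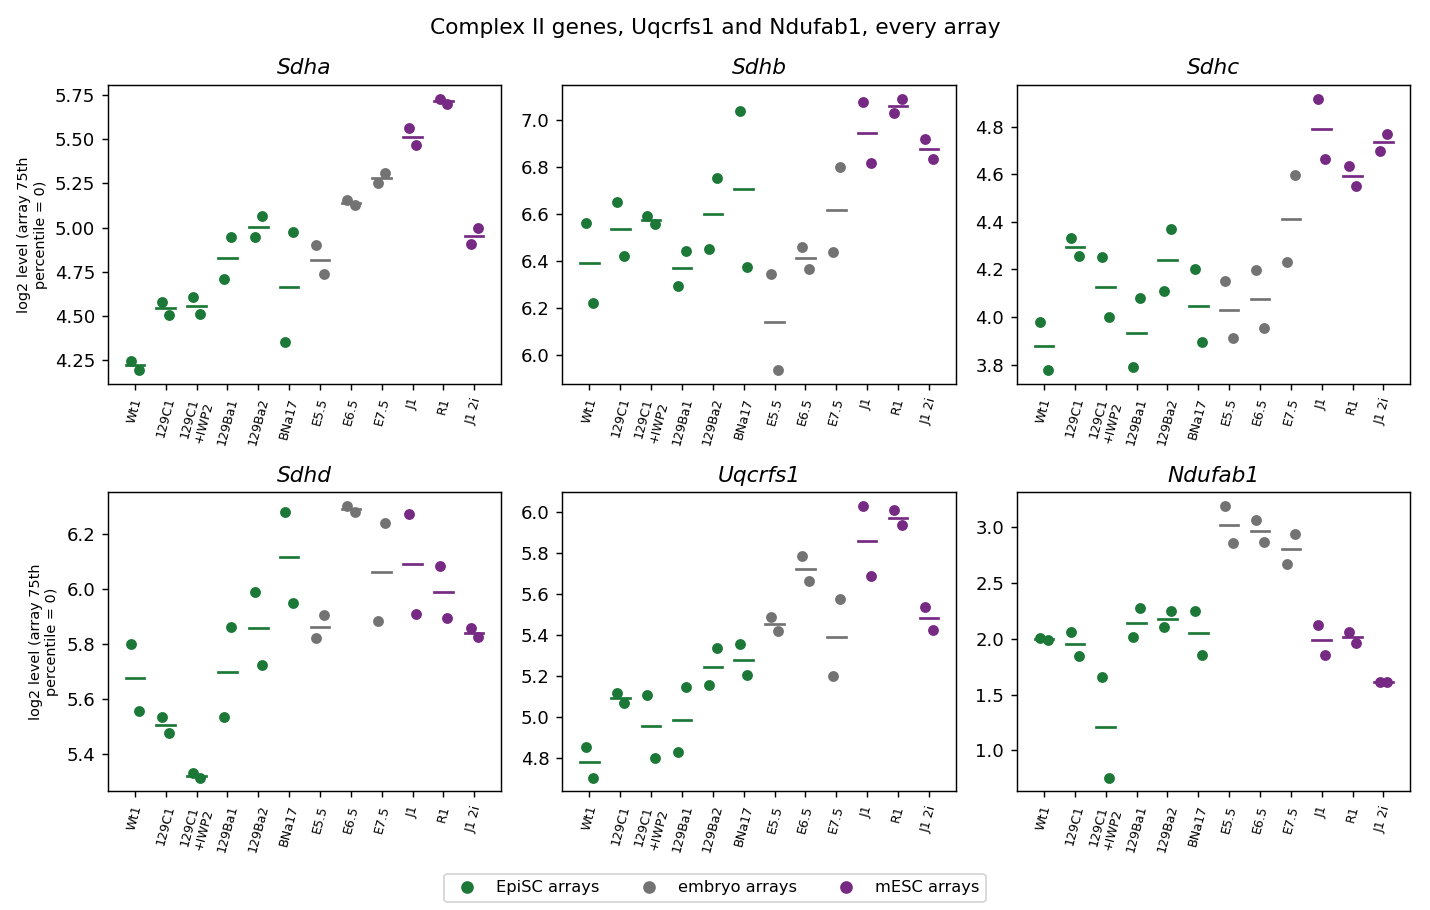
Log2 levels of the 4 complex II genes, Uqcrfs1 and Ndufab1 on each array (points), with group means (bars), in the 12 groups. Sdha lies at 5.47 or above on all J1 and R1 arrays and at 5.07 or below on all untreated EpiSC arrays, while Sdhd overlaps between them.

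Sdha is shown here with the 250 bases before its RefSeq start site because it was the complex II gene with the largest difference. The stretch is at chr13:74350241-74350490 on the minus strand of GRCm38.p6. Capitals mark matches to the core motif of Nrf1, a transcription factor known to act on respiratory genes. Both strands were searched.

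Sdha: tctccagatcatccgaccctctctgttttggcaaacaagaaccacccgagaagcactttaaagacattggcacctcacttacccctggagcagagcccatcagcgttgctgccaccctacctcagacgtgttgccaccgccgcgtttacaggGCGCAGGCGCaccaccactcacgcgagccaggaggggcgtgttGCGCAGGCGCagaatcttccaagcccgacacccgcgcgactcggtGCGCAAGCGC

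The stretch holds 3 matches. Over the 53 members with a RefSeq promoter, 9 (17.0%) held at least 1 match in this window, against 4.23% of 27025 genes. They were Sdha, Sdhd, Cox6a1, Ndufa5, Ndufa8, Ndufa11, Ndufb4, Ndufs5 and Ndufs6. The Ets motif CCGGAAG, bound by Gabpa among others, was in 8 (15.1%) against 7.83%, and the Yy1 motif AAGATGGCG in 0 against 0.71%. The motifs do not contain each other. Of 14 members called lower in EpiSC lines, 2 held the Nrf1 motif and 0 the Ets motif. Of 38 not called, 7 and 8 did. A match describes the letters of the window and not binding.

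In complex III, Uqcrfs1, the Rieske iron-sulphur protein, lay between 4.70 and 5.35 in EpiSCs and between 5.69 and 6.03 in mESCs. Uqcrc1, a core protein, lay between 4.80 and 5.26 against 5.65 to 5.94. Both were without overlap, with differences of -0.84 ± 0.19 (adjusted p = 0.0135) and -0.77 ± 0.16 (adjusted p = 0.00978). The small subunits Uqcr10 (-0.60) and Uqcrb (-0.52) were also called, with overlapping arrays, while Uqcrc2 at -0.41 ± 0.19 (adjusted p = 0.137) was not. All 8 genes of the complex had a difference below 0.

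In complex IV the catalytic core is encoded by the mitochondrion and the nuclear genes supply the surrounding subunits. Cox5a, one of these, lay between 7.60 and 8.11 (median 7.81) in EpiSCs and at 8.85, 8.55, 8.78 and 8.67 in mESCs, a difference of -0.88 ± 0.15 (adjusted p = 0.00437) with no overlap. Cox4i1, the widespread form of subunit 4, differed by -0.75 ± 0.19 (adjusted p = 0.0199). Its arrays overlapped through BNa17 array 1 alone, at 8.33 against 8.18 on J1 array 2. Cox5b (-0.50) and Cox7c (-0.59) were also lower, although another probe of Cox7c gave 0.19.

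Cox7b2 and Cox8c, forms of subunits 7b and 8 known from testis, showed the largest contrast of all members. On the mESC arrays Cox7b2 read -1.49 and -1.74 in J1 and -1.10 and -0.94 in R1, and Cox8c read -0.97, -1.23, -0.30 and -1.02. None of the 10 EpiSC arrays was well above background for either gene. Against the lowest signal called above background, Cox7b2 was at least 5.53-fold lower in EpiSCs and Cox8c at least 7.47-fold lower. Their adjusted p in limma, 0.00019 and 0.000287, belong to the fitted differences, which use EpiSC readings at background, and not to these bounds. Both genes entered the test through the mESC groups alone, where they are high, so their calls are no separate support. Both calls held in all 28 alternatives, which reuse the same arrays and the same EpiSC readings at background. Their widespread counterparts Cox7b (-0.30 ± 0.21) and Cox8a (-0.13 ± 0.18) did not pass the test.

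**Figure D3:**
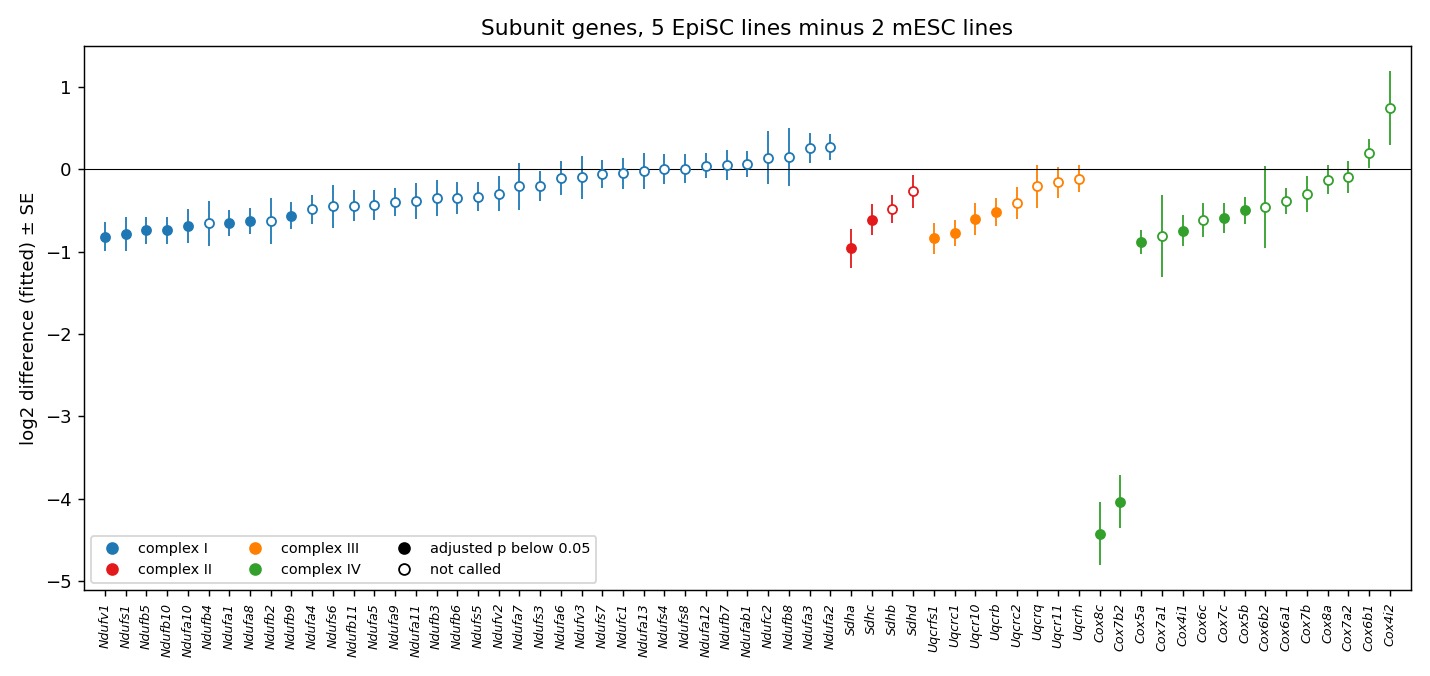
Fitted log2 difference, EpiSC lines minus mESC lines, with its standard error for the tested members except 1, by complex. Filled points passed the test, all 20 of them below 0, and Cox7b2 and Cox8c are dim on the EpiSC side, so their fitted values are not bounds.

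The count of called members was not stable. It was 8 lower and 1 higher after quantile normalization, which moved the median of all genes to 0.10 and that of the members to -0.14. That setting called 2132 of 14439 genes lower and 2618 higher. The count was 2 lower without line J1, where 1110 of 14368 genes were lower, and 2 without R1, where 1053 of 14406 were. The count was 25 without BNa17 array 1. Without BNa17 array 2 it was 11, beside 2157 of 14496 genes, and without J1 array 1 it was 13, beside 2663 of 14528. With J1 or R1 left out the mESC side was a single line, and the calls kept were those of Cox7b2 and Cox8c. Members measured on the EpiSC arrays thus lost their calls, among them Sdha, Ndufv1, Ndufs1, Uqcrfs1, Uqcrc1, Cox5a and Cox4i1. The calls of Sdha, Ndufs1 and Uqcrc1 also ended after quantile normalization. The median stayed between -0.46 and -0.32 when any array or line was left out. Slides and days of scanning were shared by no EpiSC and mESC line, so slide and kind of line cannot be told apart. With slide as a random block 17 members were lower. Such a block cannot remove a slide effect here, because each slide holds 1 kind of line only. The share of probes above background was 41.0% to 42.8% on the mESC arrays and 36.7% to 50.5% on the EpiSC arrays. Its part in the result, and that of the fibroblast RNA, was not tested.

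In J1 kept in 2i, 10 of 64 members were called higher than in J1 and 4 lower, against 11.3% and 14.9% of all genes. The median difference was 0.27 for the members and -0.05 for all genes. Arrays did not overlap for 35 members higher in 2i and 10 lower, against 34.2% and 39.6% of all genes. By complex the split was 7 higher and 0 lower for complex IV, 3 and 3 for complex I, 0 and 1 for complex II, and 0 and 0 for complex III. Of the 13 complex IV members measured on all arrays, 12 had their highest mean of all groups in 2i, against 19 of 37 for complex I, 0 of 4 for complex II and 5 of 8 for complex III.

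The largest rises were in tissue-restricted forms. Cox7a1, the heart and muscle form of subunit 7a, read 4.34 and 3.76 in J1 and 5.70 and 5.75 in 2i, a rise of 1.68 ± 0.33 (adjusted p = 0.00221). Cox6b2, the testis form of subunit 6b, read 3.05 and 2.84 against 4.35 and 4.22, a rise of 1.34 ± 0.24 (adjusted p = 0.00117). Cox4i2, the form of subunit 4 known from lung and low oxygen, read -1.56 ± 0.09 (SD, n = 2) in J1 against -0.20 and -0.32, a rise of 1.30 ± 0.26 (adjusted p = 0.00247). In each of the 3 genes both 2i arrays lay above both J1 arrays, and each call held in all 12 alternatives.

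The widespread partners rose less or did not pass. Cox6b1 rose by 0.78 ± 0.20 (adjusted p = 0.013), from 4.62 and 4.41 to 5.34 and 5.25. Cox4i1 at 0.48 ± 0.23 (adjusted p = 0.142) and Cox7a2 at 0.38 ± 0.23 (adjusted p = 0.236) did not pass. The difference between partners was not tested. Cox7b (0.84), Cox8a (0.68) and Cox6a1 (0.64) rose as well. Cox8c (-0.03 ± 0.45) did not pass the test, and Cox7b2 read 0.93 ± 0.48 higher without passing (adjusted p = 0.172).

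The calls of complex I in 2i went both ways, in shares below the 11.3% and 14.9% of all genes called higher and lower. Ndufv3, an accessory subunit beside the NADH site, rose by 0.94 ± 0.21 (adjusted p = 0.00565), with 0.59 from a second probe, and Ndufa3 (0.82) and Ndufb7 (0.58) rose. Ndufa10, an accessory subunit, fell by 0.60 ± 0.17 (adjusted p = 0.0192) and Ndufa8 by 0.58 ± 0.17 (adjusted p = 0.0193). Sdha fell by 0.56 ± 0.17 (adjusted p = 0.0223), while Sdhb and Sdhc, at -0.07 and -0.06, did not pass the test.

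**Figure D4:**
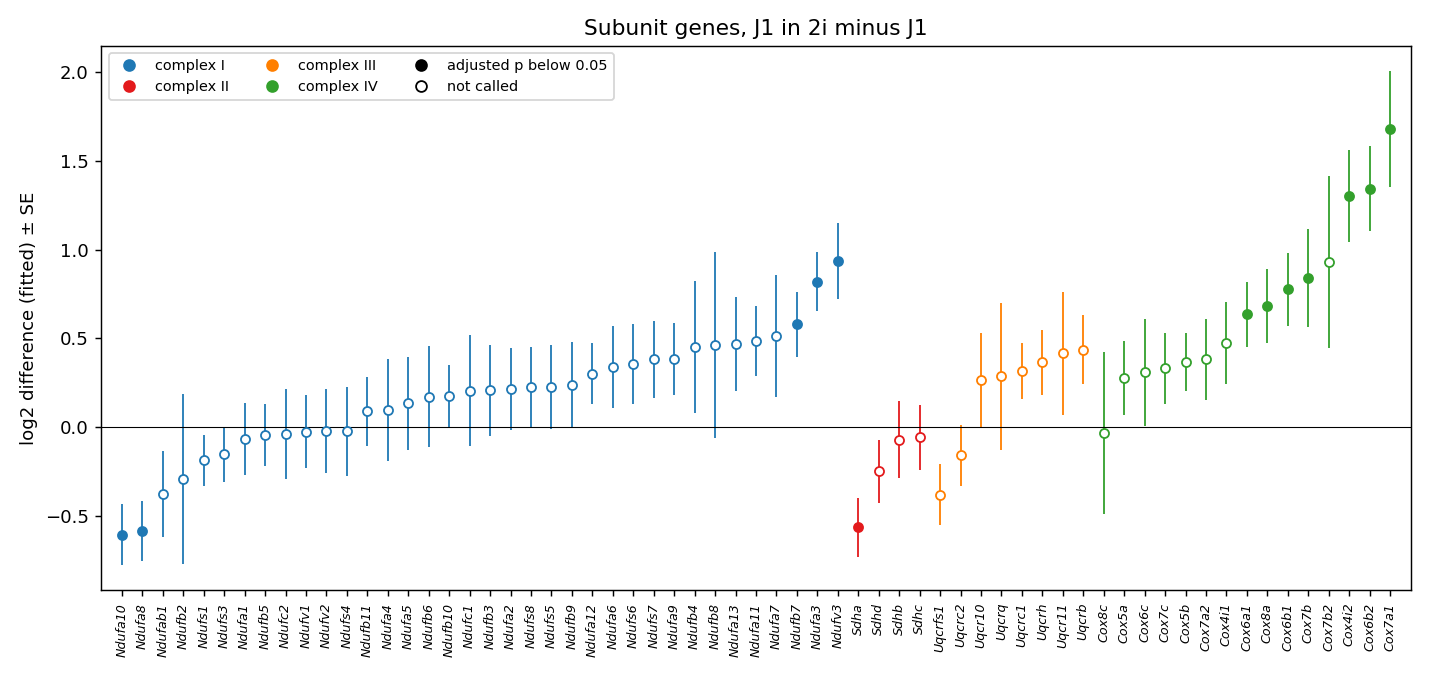
Fitted log2 difference, J1 in 2i minus J1, with its standard error for the tested members except 1, by complex. Filled points passed the test: 7 members of complex IV lie above 0, while those of complex I lie on both sides.

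The 2i arrays were on 1 slide and the J1 arrays on another, scanned on another day. Slide, day and medium cannot be told apart here. Leaving out 1 array lowered the rises to 4 (without J1 array 2), 5 (without either 2i array) or 7, and the falls to 0 without J1 array 1 or either 2i array. After quantile normalization 17 rose and 3 fell, where 1593 of 15090 genes rose.

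The isoform pairs of complex IV are given next across all groups, with the promoters of Cox7b2, Cox7a1 and Cox6b2, which had wide spans of group means, and of Cox6b1, the widespread partner of Cox6b2. Cox6b1 and Cox6b2 lie on chromosome 7, at chr7:30626115-30626364 and chr7:4753095-4753344 on the minus strand. Cox7a1 is at chr7:30183921-30184170 on the plus strand and Cox7b2 at chr5:71548206-71548455 on the minus strand of GRCm38.p6, each for the 250 bases before the RefSeq start. Capitals mark the Ets motif CCGGAAG, on either strand; none of the 4 holds the Nrf1 motif.

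Cox6b1: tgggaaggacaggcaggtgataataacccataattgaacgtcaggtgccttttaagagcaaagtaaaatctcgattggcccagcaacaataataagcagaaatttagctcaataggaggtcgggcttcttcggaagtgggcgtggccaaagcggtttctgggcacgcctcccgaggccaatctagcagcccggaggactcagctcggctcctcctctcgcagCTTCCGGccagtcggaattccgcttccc
Cox6b2: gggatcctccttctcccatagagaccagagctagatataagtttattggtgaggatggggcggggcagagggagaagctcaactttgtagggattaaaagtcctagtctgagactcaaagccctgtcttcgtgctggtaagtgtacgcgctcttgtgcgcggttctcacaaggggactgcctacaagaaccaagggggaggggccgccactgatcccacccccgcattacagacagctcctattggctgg
Cox7a1: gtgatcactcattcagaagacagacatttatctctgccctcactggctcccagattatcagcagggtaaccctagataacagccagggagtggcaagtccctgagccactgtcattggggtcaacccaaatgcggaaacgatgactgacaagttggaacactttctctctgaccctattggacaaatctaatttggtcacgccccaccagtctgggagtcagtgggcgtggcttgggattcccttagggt
Cox7b2: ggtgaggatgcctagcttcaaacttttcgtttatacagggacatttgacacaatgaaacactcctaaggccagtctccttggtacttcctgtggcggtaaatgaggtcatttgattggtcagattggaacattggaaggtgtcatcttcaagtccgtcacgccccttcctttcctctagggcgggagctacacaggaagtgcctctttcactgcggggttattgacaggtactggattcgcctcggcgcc

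Of these 4, Cox6b1 alone held a match, and it held 1. Cox6b2 was lowest in the embryo, from 1.03 upward with a median of 1.11 on the 6 arrays. In EpiSCs it ran from 1.80 to 3.97 (median 2.41), with 129C1 at 3.78 and 3.97, Wt1 at 3.08 and 2.55 and the 3 lines made with the Wnt inhibitor at 1.80 to 2.50. Cox7a1 ran from 1.94 to 2.42 in the embryo and from 1.97 (129Ba1) to 4.03 (129C1) in EpiSCs. Its partner Cox7a2 kept to 6.17 to 7.11 over the same EpiSC arrays.

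Cox4i2 had another order. Its levels in the embryo, -0.53 to 0.21, lay above those of J1 and R1, -1.63 to -1.46, without overlap. Wt1 read 0.41 and -0.19, 129C1 read -0.29 and -0.32, and 129Ba1 read -1.46 and -1.77. The contrast of EpiSC with mESC lines gave, for Cox4i2, 0.74 ± 0.45 (adjusted p = 0.234). Cox6a2, the heart and muscle form of subunit 6a, was well above background on 2 of 10 EpiSC arrays and on none of J1 or R1. Cox8b, the muscle form of subunit 8, was so on 1 array, of J1 in 2i.

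**Figure D5:**
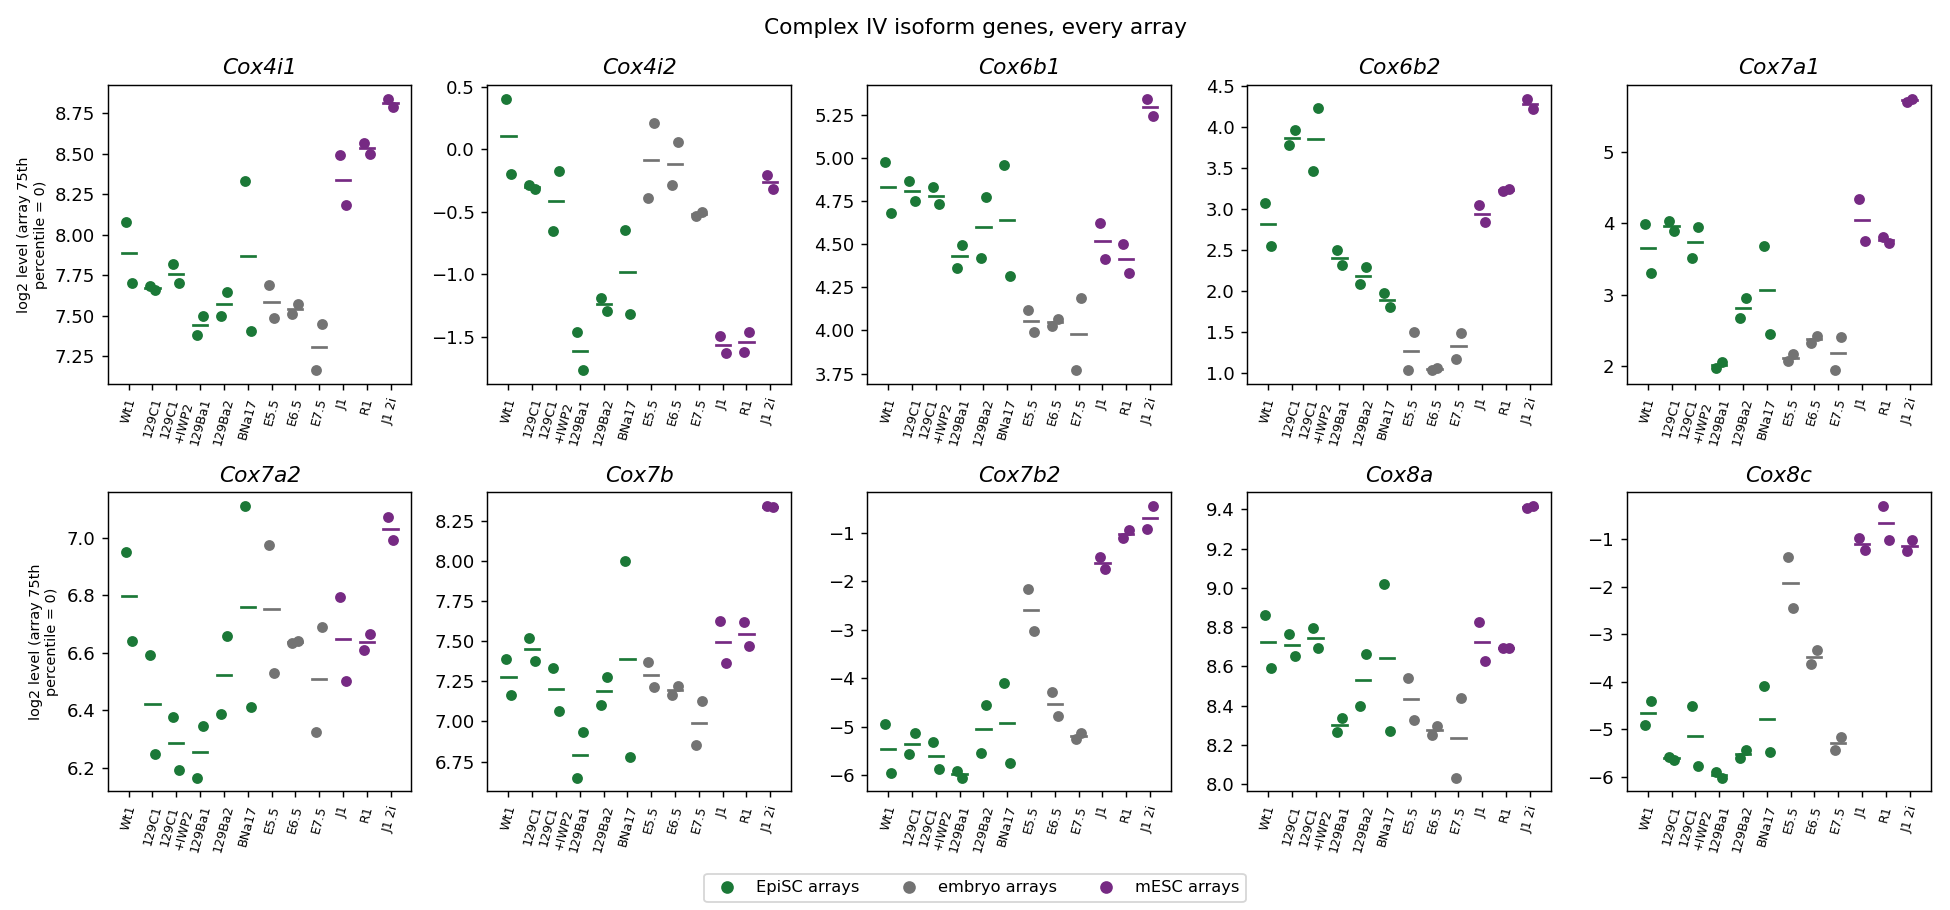
Log2 levels of complex IV isoforms on each array (points) with group means (bars) in the 12 groups. Cox7a1 and Cox6b2 peak in J1 in 2i, at 5.73 and 4.29, while Cox7b2 and Cox8c are not well above background on any EpiSC array.

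In the embryo few members were called between stages. From E5.5 to E6.5 epiblast 0 of 64 members rose and 2 fell, against 5.61% and 3.31% of all genes (at an unadjusted p below 0.05 in limma, 2 were higher and 3 lower). The arrays were fully separated for 17 members higher and 9 lower, against 32.9% and 24.8% of all genes. Cox7b2 read -2.16 and -3.02 at E5.5 and was not well above background at E6.5, at least 3.02-fold lower (adjusted p = 0.0211 for the fitted difference). Cox8c read -1.38 and -2.44, then -3.64 and -3.33, a fall of 1.57 ± 0.45 (adjusted p = 0.0436). The median of the members, 0.02 against 0.05 for all genes, turned to -0.03 after quantile normalization. There 1 member was higher, beside 863 of 15090 genes. There were 0 falls without E5.5 array 1 or E6.5 array 2, and 1 without E6.5 array 1. Neither call held when only these 4 arrays were fitted, and adjusted p reached 0.158 for Cox7b2 and 0.265 for Cox8c over 12 alternatives.

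From E6.5 to E7.5 0 members rose and 1 fell, against 11.4% and 16.1% of all genes (at an unadjusted p below 0.05 in limma, 2 were higher and 2 lower). Full separation of the arrays was seen for 9 members higher and 20 lower, against 32.3% and 40.7% of all genes. The 1 was Cox8c, which was not well above background at E7.5 and was at least 1.22-fold lower (adjusted p = 0.00882 for the fitted difference). With normexp background correction its adjusted p was 0.83, within a range of 0.0015 to 0.83 over 12 alternatives. The median of the members, -0.11 against -0.07 for all genes, turned to 0.10 after quantile normalization. Then 12 members were higher and 2 lower, against 2042 and 2231 of 15090 genes. There were 0 falls without E6.5 array 2 or E7.5 array 1, and 1 rise without E6.5 array 1. Cyct, the testis form of cytochrome c, fell by 3.70 ± 0.47 over the same step (adjusted p = 7.32e-05). Over this step all 6 visceral endoderm markers fell, as did 3 of 4 mesoderm markers and 3 of 3 definitive endoderm markers. Of 4 trophoblast markers 3 rose and 1 fell, and of 8 fibroblast markers 5 rose and 1 fell. The part of these markers in the result was not tested. E6.5 and E7.5 arrays were on different slides and scanned on different days, so stage and slide cannot be told apart.

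Against E5.5 epiblast the EpiSC lines had 5 members higher and 4 lower, against 19.8% and 19.1% of all genes, with a median of 0.10 for the members and -0.04 for all genes. Arrays did not overlap for 6 members higher and 4 lower, against 19% and 19.3% of all genes. The higher members were Cox6b2 (1.37 ± 0.45), Ndufb11 (0.92 ± 0.18, with 0.55 from a second probe), Ndufa3, Cox6b1 and Ndufa2. Ndufab1, the mitochondrial acyl carrier protein that also sits in complex I, was lower: it ran from 1.85 to 2.28 in EpiSCs and read 3.19 and 2.86 at E5.5, a difference of -0.96 ± 0.16 (adjusted p = 0.00172). Cox6c differed by -0.62 ± 0.20. Cox7b2 and Cox8c were at least 2.29-fold and 3.66-fold lower. With slide as a random block 2 were higher and 3 lower, and the calls of Cox6b2, Cox6b1 and Cox6c ended. Without E5.5 array 1 there were 3 higher, without array 2 there was 1, and after quantile normalization 14 were higher and 4 lower. That normalization called 3217 of 14754 genes higher. All 8 fibroblast markers were higher and all 6 visceral endoderm markers lower in the EpiSC lines, and their part was not tested. The EpiSC lines shared no slide or day of scanning with any embryo tissue. Slide and kind of sample thus cannot be told apart here or against E7.5.

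Against E7.5 ectoderm 4 members were higher and 2 lower, against 15.8% and 13% of all genes, with a median of 0.10 against 0.00. The arrays were fully separated for 4 members higher and 2 lower, against 16.9% and 16.5% of all genes. The higher genes were Uqcrq (0.77), Cox6b1 (0.68 ± 0.17, adjusted p = 0.0174), Ndufs8 (0.62) and Ndufs7 (0.61), and the lower were Ndufab1 (-0.74 ± 0.16, adjusted p = 0.00862) and Sdha (-0.63 ± 0.20, adjusted p = 0.045). Cox6b1 and Ndufab1 alone kept their calls with slide as a random block. The counts fell to 0 higher without E7.5 array 1 and to 0 lower without array 2. There were 2 higher without E7.5 array 2, 129Ba1 array 2, BNa17 array 2 or line 129Ba2, and 7 without line 129Ba1, and 1 lower without E7.5 array 1, 129Ba1 array 1, 129Ba2 array 1, either BNa17 array, line 129C1 or line BNa17. After quantile normalization 9 were higher and 2 lower, where 2503 of 14754 genes were higher. Of the 8 fibroblast markers 7 were higher, and of 4 trophoblast markers 3 were lower, in the EpiSC lines than at E7.5, where summed trophoblast levels were 22.4 and 20.6 against at most 1.33 on the EpiSC arrays. Their part was not tested.

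Against E5.5 epiblast the mESC lines had 27 members higher and 2 lower, against 28.1% and 25% of all genes. The median was 0.45 for the members and 0.03 for all genes, and 59 of 64 differences were above 0. Full separation of the arrays was seen for 40 members higher and 2 lower, against 36.3% and 31.9% of all genes. By complex 14 were higher in I, 3 in II, 4 in III and 6 in IV. Cox6b2 (1.83 ± 0.21) and Cox7a1 (1.79 ± 0.20) led, followed by Ndufb11 (1.36 ± 0.17). Ndufb11, an accessory subunit of the membrane arm, read 5.98 and 5.72 at E5.5 against 7.15 ± 0.22 in J1 and 7.26 ± 0.0065 in R1 (SD, n = 2 each), without overlap. A second probe of Ndufb11 gave 0.61. Sdha (0.80), Sdhb (0.86, with 0.40 from a second probe) and Sdhc (0.66) were higher. Cox4i2 (-1.46 ± 0.23, adjusted p = 0.00204) and Ndufab1 (-1.02 ± 0.18, adjusted p = 0.00337) were lower. The higher count fell without E5.5 array 2, J1 or R1, to about the share of all genes called in the same fits. Each of these fits leaves a group with a single array or line. The median was 0.30 to 0.61 when any array or line was left out. The 8 fibroblast markers were higher and the 6 visceral endoderm markers lower in the mESC lines too, and their part was not tested. These lines and E5.5 epiblast shared no slide or day of scanning, so slide and kind of sample cannot be told apart.

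J1 and E7.5 ectoderm shared a slide, which gave a comparison within 1 slide. Here 29 of 64 members were higher in J1 and 2 lower, against 28.1% and 22.7% of all genes, with a median of 0.56 against 0.09. Arrays did not overlap for 45 members higher and 2 lower, against 42% and 35.4% of all genes. By complex 14 were higher in I, 0 in II, 4 in III and 11 in IV. Uqcrc1 read 4.73 and 4.98 at E7.5 and 5.90 and 5.65 in J1, a difference of 0.92 ± 0.16 (adjusted p = 0.000174). Sdha read 5.25 and 5.31 against 5.56 and 5.47, a difference of 0.23 ± 0.17 that did not pass (adjusted p = 0.264). Cox7b2 and Cox8c were at least 4.44-fold and 6.33-fold higher in J1. Ndufab1 (-0.82 ± 0.24) and Cox4i2 (-1.05 ± 0.26) were lower. The higher count fell without E7.5 array 1 or J1 array 1, to a share of the members below that of all genes. The lower count fell without E7.5 array 2 or J1 array 2. Each of these fits leaves 1 array in a group. The median stayed between 0.39 and 0.70 over the arrays left out. All 8 fibroblast markers were higher in J1 and 3 of 4 trophoblast markers lower, with summed trophoblast levels of 22.4 and 20.6 at E7.5 against 0.505 and 0.503 in J1. Their part was not tested. These comparisons share arrays with one another, so their counts are not independent.

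Ndufab1 read between 2.67 and 3.19 on the 6 embryo arrays, against 1.85 to 2.28 in untreated EpiSCs and 1.86 to 2.12 in J1 and R1. The embryo arrays lay above all cell line arrays. In 129C1 under IWP2 it read 1.66 and 0.75.

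The way the EpiSC lines were made gave no call. Between the 3 lines established with the Wnt inhibitor and the 2 of the original protocol, 0 of 62 members were higher and 0 lower in limma, against 0.534% and 1.04% of all genes. At an unadjusted p below 0.05, 1 was higher and 3 were lower. The arrays were fully separated for 3 members higher and 2 lower, against 9.47% and 6.67% of all genes. The lower were Cox4i2, Cox6b2 and Cox7a1, each by 1.18 on the log2 scale, with adjusted p of 0.125, 0.206 and 0.197. Cox4i2 and Cox6b2 did not overlap between the 2 kinds of line, and Cox7a1 did. Within the slide that 129C1 shares with the 3 lines, 3 members were higher and 4 lower, against 2180 and 1719 of 15090 genes. There 129C1 alone stands for the original protocol, and the arrays of a line count as replicates.

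IWP2 for 129C1 gave 0 of 64 members higher and 0 lower in limma, against 2.26% and 3.35% of all genes. At an unadjusted p below 0.05, 0 were higher and 1 was lower. Full separation of the arrays was seen for 7 members higher and 12 lower, against 25.7% and 28% of all genes. The lower one was Ndufab1, at -0.75 ± 0.24 (adjusted p = 0.0961). Without IWP2 array 1, 1 member was called lower. Sdha (0.01 ± 0.17), Cox6b2 (-0.02 ± 0.24) and Ndufs1 (0.10 ± 0.14) did not pass the test. The treated arrays were on another slide than the untreated ones, and the effects of slide and of IWP2 cannot be told apart.

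The neighbouring pathway lists gave the following counts, to be read against the 19.6% of all genes called lower and 17.3% called higher in EpiSC lines. Between EpiSC and mESC lines, 7 of 40 assembly factors were lower and 2 higher, led by Ecsit (-1.64 ± 0.20), a complex I assembly factor, Sco1 (-1.63 ± 0.20), a copper carrier for complex IV, and Coa5 (-1.40 ± 0.16). Of 17 ATP synthase genes, 2 were lower and 0 higher: Atp5g1 (-0.80) and Atp5g3 (-0.66), both for the membrane ring. Of 17 genes for electron carriers and coenzyme Q synthesis, 7 were lower and 0 higher. Cyct was at least 33.7-fold lower in EpiSCs, while Cycs, the widespread cytochrome c, differed by -0.08 ± 0.21.

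For the tricarboxylic acid cycle and pyruvate entry, 8 of 24 genes were lower and 1 higher, beside the same 19.6% and 17.3% of all genes. Mpc1, a subunit of the mitochondrial pyruvate carrier, differed by -2.27 ± 0.23 and Pdk1, a kinase that switches off pyruvate dehydrogenase, by -1.87 ± 0.30, while Pdk2, another such kinase, was higher by 1.25 ± 0.26. Of 19 regulators of mitochondrial gene expression 5 were lower, led by Esrrb (-8.89 ± 0.54), which is also a marker of naive pluripotency, and by Tfb2m (-1.20 ± 0.20). Nrf1 (-0.24), Gabpa (-0.64), Tfam (-0.45) and Esrra (-0.20) did not pass. Ppargc1a and Ppargc1b were well above background on 2 and 3 arrays and were not tested.

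In J1 in 2i, where 14.9% of all genes fell and 11.3% rose, 5 of 40 assembly factors fell and 0 rose, led by Cox10 (-1.01 ± 0.21), which takes part in making the haem of complex IV. Of 17 electron carrier and coenzyme Q genes 2 fell, Coq5 (-0.85 ± 0.20) and Coq9 (-0.64 ± 0.14), and 1 rose, Coq10a (0.89 ± 0.21). Of 24 tricarboxylic acid cycle genes 3 fell and 0 rose, led by Dld (-0.90 ± 0.17), and of 19 regulators 4 fell and 0 rose, with Nrf1 at -0.57 ± 0.18 (adjusted p = 0.032). None of 17 ATP synthase genes was called. Against E5.5 epiblast Esrra, a receptor known to act on respiratory genes, was higher in EpiSC lines (1.22 ± 0.17) and in mESC lines (1.42 ± 0.14).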

How the data were processed

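RNA was labelled with Cy3 and read on single-colour Agilent arrays. The authors deposited scanner intensity files from Feature Extraction 10.5.1.1, per the submitters' processing notes; per the file headers, the processed signal they hold is linear. They also deposited a table of log2 values with unstated scaling. Its columns matched their own arrays after the scaling used here and centring on each probe's median (r at least 0.999991, median absolute difference 0.00186), with column medians of -0.35 to 0.78, and it served as an alternative. Here log2 processed signal minus the array's 75th percentile was used (R 4.3.3, limma 3.58.1, the data.table package at version 1.17.8). Control spots and flagged values were left out, genes were named through RefSeq accessions (27235 of 55681 probes), and the brightest probe stood for a gene. A gene entered a test when it was well above background on all arrays of any group in the fit, which need not be a group compared. Cox7b2 and Cox8c were thus tested for IWP2 and for EpiSC lines against E7.5, though dim on both sides. The files name mm9 as the array's build, and promoters are of GRCm38.p6.

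Calls are Benjamini-Hochberg adjusted p below 0.05 in limma over all genes, two-sided. Line means were the replicates in comparisons between kinds of line. Comparisons of EpiSC or mESC lines with embryo tissue were fitted on line means together with embryo arrays. Their spread thus mixes that between lines with that between arrays of 1 tissue. All 24 arrays were fitted for the rest. The members and gene lists were chosen with earlier results of these data known. All members were counted, and 1 member's own values are not reported here. Values were printed for up to 4 called members with the largest rise and fall per comparison, complex II, the complex IV isoforms, core subunits and dim members, and in other lists for up to 3 called genes and chosen regulators. No gene of the mitochondrial genome was analysed here. Normexp correction used the median signal, because the mean signal is not among the columns used here, with an offset of 50. Other alternatives were quantile normalization, the deposited table, no dim filter, the mean of probes, a 2-fold minimum, slide and replicate blocks, and leaving out arrays or lines.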

Additional observations from a re-analysis of the deposited data

Results flagged for a closer look

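The 5 EpiSC line means of each member, and of the members' median, were searched for a line far from the other 4; 4 of 67 stood apart, and chance gives about 1 in 20. Cox6a1 was lowest in 129Ba1, at 8.69 against 8.88 to 8.93 in the other lines. Uqcrc1 was lowest in 129C1, at 4.83 against 5.07 to 5.12. Ndufb8 was highest in BNa17, at 8.40 against 7.12 to 7.44, with its arrays at 9.72 and 7.08. Cox8b was highest in BNa17, at -4.75 against -5.72 to -5.65, but no EpiSC array was well above background for it.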

How the results depend on the processing

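Of the values for named genes, 179 lost a call, 68 gained one in the same direction, and 0 of those called in the main fit reversed. The other 4304 count as unchanged. For genes not called in the main fit a change of direction was not counted, so the 4304 can include such changes. Normexp gave 1 member lower under IWP2, 1 higher from E5.5 to E6.5 and 3 lower from E6.5 to E7.5. The same counts over 15090 genes were 395, 875 and 2113. Quantile normalization gave 1 higher and 8 lower (median -0.14) for EpiSC against mESC lines, 14 higher (median 0.28) for EpiSC lines against E5.5, 9 higher against E7.5, 17 higher in 2i, 1 higher from E5.5 to E6.5, 12 higher and 2 lower (median 0.10) from E6.5 to E7.5, and a median of 0.31 for J1 against E7.5. Without the dim filter, 13 were lower for EpiSC against mESC lines, 2 higher and 1 lower for EpiSC lines against E7.5, and 1 lower from E5.5 to E6.5. Over 20616 genes these counts were 2501, 2104, 1632 and 393. With a 2-fold minimum, 2 were lower for EpiSC against mESC lines, beside 1753 of 14439 genes. In 2i 3 were higher and 0 lower, beside 912 and 1056 of 15090. EpiSC lines against E5.5 had 1 higher and 2 lower, beside 2167 and 1385 of 14754. Against E7.5 they had 0 and 0, beside 1687 and 908. The mESC lines against E5.5 had 8 higher, beside 2415 of 14297. J1 against E7.5 had 6 higher and 1 lower, beside 2667 and 2254 of 15090. Slide as a random block gave 2 higher for EpiSC lines against E5.5, and 1 higher and 1 lower against E7.5. Of 14754 genes 2166, 1528 and 1072 were so called. Fitting the compared arrays alone gave 0 lower from E5.5 to E6.5, beside 238 of 13587 genes. Within the slide of 129C1, 3 were higher and 4 lower in the Wnt inhibitor lines, against 2180 and 1719 of 15090 genes.

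Replicate numbers did not pair the samples: over 66 pairs of groups the correlation of deviations ran from -0.34 to 0.42 (median -0.01), with 17 above 0.1. With arrays in place of line means, the replicate block counts arrays of 1 line as replicates. It gave 2 higher and 37 lower for EpiSC against mESC lines, against 4993 and 5299 of 15090 genes. For the Wnt inhibitor lines it gave 5 and 5, against 3134 and 2210 genes. EpiSC lines against E5.5 gave 8 and 8, against 4309 and 4214 genes. Against E7.5 8 members were higher, beside 3717 genes.

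Leaving out 1 array or line gave, for EpiSC against mESC lines, 0 higher and 2 to 25 lower (median -0.46 to -0.32). EpiSC lines against E5.5 gave 1 to 7 higher and 3 to 5 lower (median -0.070 to 0.26), and against E7.5 0 to 7 and 0 to 2 (median -0.024 to 0.27). The mESC lines against E5.5 gave 12 to 31 higher and 2 to 3 lower (median 0.30 to 0.61), J1 against E7.5 9 to 31 and 1 to 2 (median 0.39 to 0.70), and 2i 4 to 7 and 0 to 3 (median 0.10 to 0.44). From E5.5 to E6.5 there were 0 higher and 0 to 2 lower (median -0.12 to 0.18), from E6.5 to E7.5 0 to 1 and 0 to 1 (median -0.27 to 0.06), and for IWP2 0 and 0 to 1 (median -0.09 to 0.04). The Wnt inhibitor lines stayed at 0 and 0 in limma (median -0.12 to 0.09), and the F-test called 37 to 61. The causes were not tested. With 2 arrays a group and few lines, even changes of 2-fold can go uncalled, so an absence of calls does not show equal levels. Signal near background limits Cox6a2, Cox7b2, Cox8b and Cox8c.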
